A study of Mus musculus with 35 samples.

Results

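The STAT and SOCS genes carry a cytokine signal to the nucleus and switch it off again, and 9 of them were followed here in type 1 conventional dendritic cells (cDC1) of the mouse spleen. They were chosen by name, whatever their values: the signal transducers Stat2, Stat3, Stat4, Stat5a and Stat5b, and the inhibitors Socs1, Socs2, Socs3 and Cish. All 9 were found among the 19938 named genes of the array table. The samples were 35 Affymetrix arrays in 8 groups. Each array was hybridised with cDNA made from total RNA of sorted cDC1, the dendritic cells that present antigen of dying cells to CD8 T cells. Set 1 held 5 heterozygous (MyclGFP/+) and 4 Mycl KO (MyclGFP/GFP) arrays at steady state, so that its controls already carry 1 GFP allele. Set 2 held 5 wild-type (WT, Mycl+/+) and 5 Mycl KO (MyclGFP/GFP) arrays at steady state. Set 3 held 5 WT (Mycl+/+) and 5 Mycl KO (MyclGFP/GFP) arrays from mice injected with 100 µg of poly IC, which mimics viral double-stranded RNA, 5 h before the spleen was taken. The Mxd1 set held 3 WT (Mxd1+/+) arrays and 3 labelled Mxd1 KO (Mxd1-/-) from mice given 100 µg of poly IC 18 h before. Mycl and Mxd1 are transcription factors of the Myc network that share the partner Max. The labels used here give no age, strain or number of mice behind each array, and the arrays of a group are called biological replicates without saying that each came from its own mouse. The p-values below therefore measure the spread between these arrays, which may be in part technical.

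A cytokine receptor brings Janus kinases together, the kinases phosphorylate the receptor and the STAT proteins bound to it, and the STAT proteins pair and bind DNA. Stat2 joins a STAT partner and Irf9 in the complex ISGF3, which carries the type I interferon signal that poly IC elicits. Stat3 serves receptors of the Il6 and Il10 family, Stat4 serves Il12 and, in some cells, type I interferon, and Stat5a and Stat5b are close relatives that serve Csf2 and other receptors. Flt3, the receptor that dendritic cells need for their development, also engages Stat3. The SOCS proteins are made in response to the same signals and block them. Socs1 and Socs3 inhibit Janus kinases directly, while Socs2 and Cish bind phosphorylated receptors. Stat5 is a known activator of Cish and Socs2, and Stat3 of Socs3.

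Of the 9 genes, 5 hold a match to the motif of STAT dimers or of ISGF3 near a start, and promoter sequences are shown for 4 of them, Stat2 and the 3 inhibitors Socs1, Socs3 and Cish, to set the interferon STAT beside feedback inhibitors of STAT signals. They come from RefSeq (build GRCm38.p6), span 250 bases before to 50 after an annotated start, and are read 5′ to 3′ on the strand of the gene. Capitals mark the match. The motif of STAT dimers (GAS) was searched as TTCNNNGAA, which reads the same on both strands, and the core of the interferon response element (ISRE) as TTTCNNTTTC or its reverse complement GAAANNGAAA. Cish (chr9:107296409-107296708, plus strand) holds GAS letters beginning 0 and 11 bases after the start, and Socs3 (chr11:117969317-117969616, minus strand) holds them at -154, counted from the start. Stat2 (chr10:128270248-128270547, plus strand) holds 1 ISRE core at -222, and Socs1 (chr16:10785487-10785786, minus strand) holds 2 that overlap, at -83 and -77.
Cish: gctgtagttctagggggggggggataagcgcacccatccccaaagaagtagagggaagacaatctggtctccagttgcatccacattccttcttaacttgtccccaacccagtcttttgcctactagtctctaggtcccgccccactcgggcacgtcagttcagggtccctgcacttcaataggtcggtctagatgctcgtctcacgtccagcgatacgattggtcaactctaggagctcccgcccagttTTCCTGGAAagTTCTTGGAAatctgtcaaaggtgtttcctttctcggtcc
Socs3: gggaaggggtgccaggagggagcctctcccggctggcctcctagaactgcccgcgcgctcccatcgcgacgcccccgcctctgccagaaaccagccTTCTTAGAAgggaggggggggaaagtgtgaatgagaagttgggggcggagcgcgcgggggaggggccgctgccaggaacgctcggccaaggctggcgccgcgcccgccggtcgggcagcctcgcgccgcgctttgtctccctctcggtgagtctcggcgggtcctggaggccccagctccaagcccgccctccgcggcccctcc
Stat2: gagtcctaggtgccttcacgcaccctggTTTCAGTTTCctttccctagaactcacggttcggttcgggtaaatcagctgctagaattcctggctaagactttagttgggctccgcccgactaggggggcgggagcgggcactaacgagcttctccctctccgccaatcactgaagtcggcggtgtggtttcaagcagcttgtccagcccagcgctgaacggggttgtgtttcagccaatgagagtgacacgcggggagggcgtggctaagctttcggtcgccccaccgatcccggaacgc
Socs1: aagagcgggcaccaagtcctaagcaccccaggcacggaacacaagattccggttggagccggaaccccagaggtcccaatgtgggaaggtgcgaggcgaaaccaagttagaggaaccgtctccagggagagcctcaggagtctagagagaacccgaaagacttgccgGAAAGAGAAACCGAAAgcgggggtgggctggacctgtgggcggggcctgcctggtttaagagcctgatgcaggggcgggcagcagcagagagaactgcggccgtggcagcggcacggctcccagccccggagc
Of all 32851 promoters of this length in the same table, 8.3% held the GAS letters and 3.44% the ISRE core. Of the 9 genes, 8 had 11 promoters in the table, and Socs2 had none there. The fifth gene with a match was Stat4, with an ISRE core in 1 of its promoters, at -97 (sequence not shown), and the promoters of Stat3, Stat5a and Stat5b held neither run of letters. A match is a run of letters and not a measured binding site.

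Values are log2 levels as the authors deposited them, and a difference of 1 is a doubling. The sets lie on different scales and were probably normalized separately, so tests were made only within a set. A level is compared between sets only as values or as its percentile among the named genes of the same array. The targeted gene bore out the labels in sets 1 and 2: Mycl was at 9.84 ± 0.11 (SD, n = 5) in heterozygous and 6.96 ± 0.16 (n = 4) in KO arrays of set 1, and at 9.67 ± 0.11 (n = 5) and 5.65 ± 0.14 (n = 5) in set 2. In set 3, labelled KO libraries 1, 2, 4 and 5 were between 5.52 and 6.14, but the library labelled Mycl KO 3 was at 8.87, close to the WT arrays at 9.03 to 9.81. The group of set 3 is therefore written as labelled KO. In the Mxd1 set, Mxd1 was at 10.82 ± 0.20 (n = 3) in WT and 10.51 ± 0.11 (n = 3) in the libraries labelled Mxd1 KO, a difference of -0.31 ± 0.11 (SE; limma, adjusted p = 0.260). Whether its probes lie outside the deleted part is unknown, so the label stands unchecked. Also in set 3, WT libraries 1 and 4 stood apart from the other WT libraries in genes of the interferon response, as described with that set. All 10 cDC1 markers, such as Xcr1 and Clec9a, were above the low-level filter in every group. In bulk samples such as these, fewer cells of a type and less RNA per cell cannot be told apart.

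Each gene's percentile is followed across groups and not set against that of another gene, since it also depends on the probes: over the 35 arrays the cluster of Socs2 used here had a mean of 9.37 and its second cluster 7.38. The group median of Stat3 was at the 97.7 to 98.3 percentile of its array in the 4 steady-state groups and at 98.4 to 99.1 in the 4 groups after poly IC. Stat2 was at 88.0 to 93.9 at steady state and at 97.3 to 99.3 after poly IC. Over the 8 groups Stat5a was at 81.5 to 92.7 and Stat5b at 77.1 to 87.5, with the highest medians of both in set 3. Stat4 had the widest range of the 9: its group medians were at 59.3 and 64.1 in set 1, at 25.5 and 26.3 in set 2, and at 83.7 to 91.8 after poly IC. Sets 1 and 2 were both taken at steady state, so this gap in Stat4 lies between sets and not between treatments, and what it comes from was not tested. The medians of set 3 hide a spread among its WT libraries. Stat4 was at 60.1 and 62.9 in WT libraries 1 and 4 and at 91.0 to 92.5 in the others, and Stat2 at 94.8 and 97.2 against 99.1 to 99.3.

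Of the inhibitors, Socs2 was at 79.2 to 88.5 in the steady-state groups and 97.5 to 98.7 after poly IC. Socs1 was at 60.0 to 68.5 and Socs3 at 66.4 to 75.7 over the 8 groups. Cish was at 39.6 to 45.0 at steady state, at 60.6 in WT and 70.7 in labelled KO arrays of set 3, and at 36.2 and 36.9 in the Mxd1 set. The median rank of Cish was thus higher at 5 h in the Mycl mice than at 18 h in the Mxd1 mice, while those of Socs2 and Stat2 were near the top in both. Single WT libraries of set 3 differed: Socs2 was at 82.7 and 88.3 in libraries 1 and 4 and at 97.6 to 98.0 in the others. Cish was at 45.7 and 48.4 there, and at 60.6 to 66.0 in the others. Treatment and array set cannot be told apart in these ranks, and no test was made on them.

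**Figure D1:**
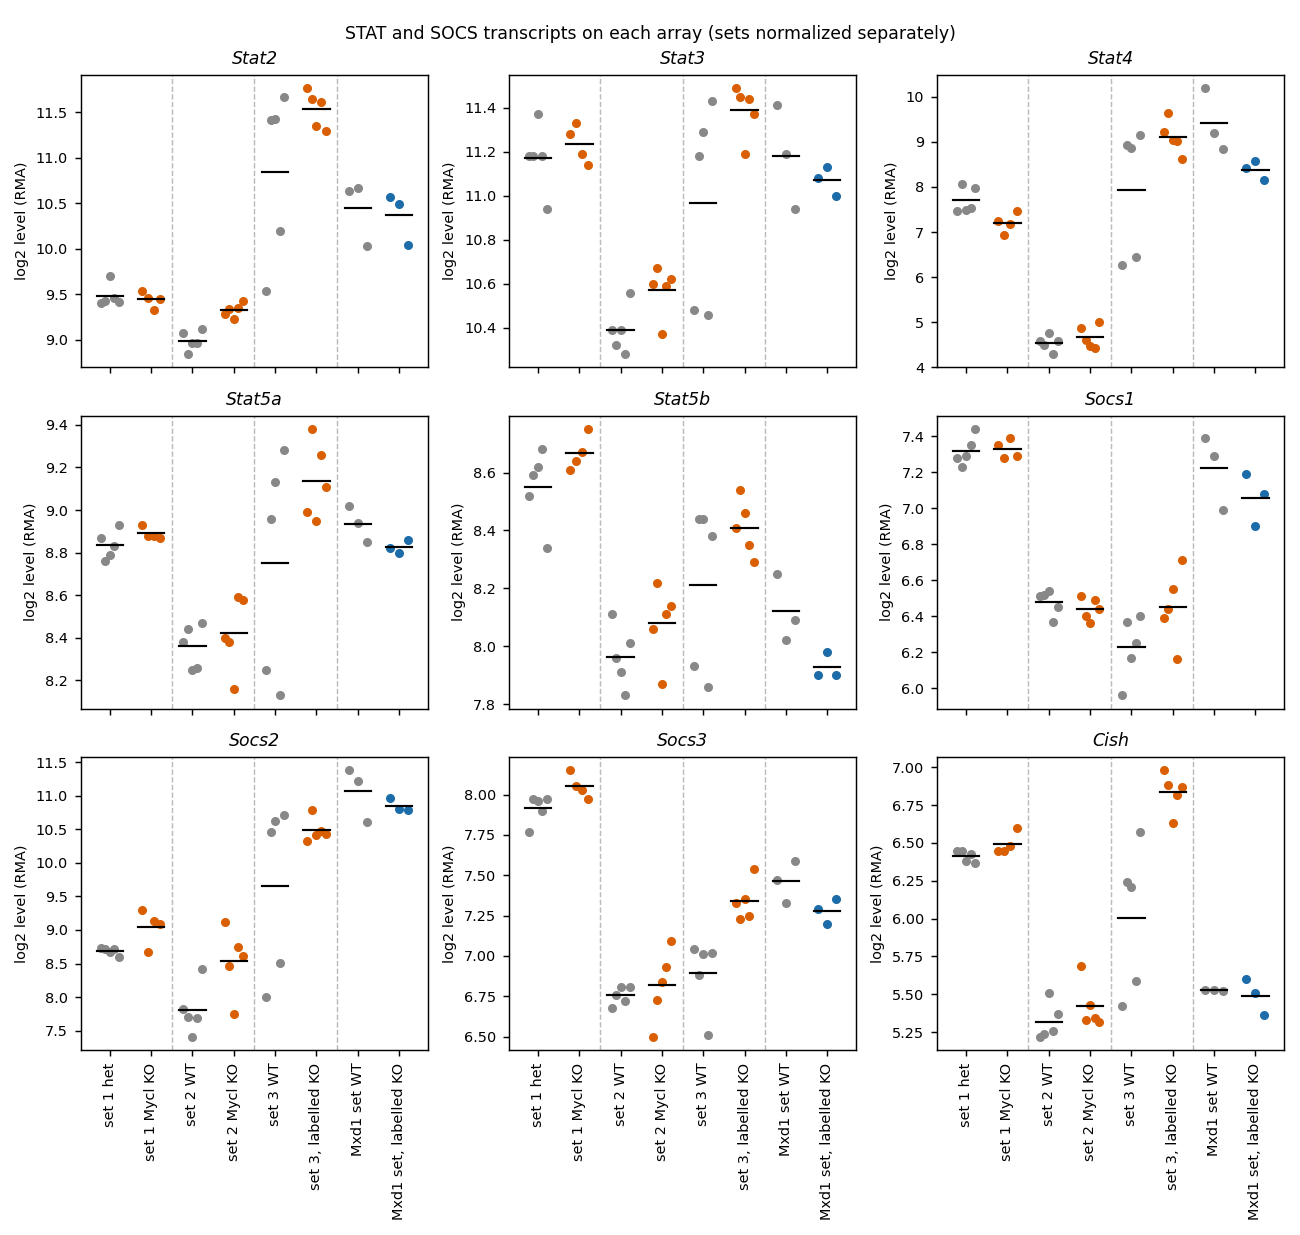
Deposited log2 level (vertical axis) of each of the 9 genes in every array, by group (horizontal axis); points are arrays and bars are group means. In set 3, Stat4 ran from 6.27 to 9.16 in WT and from 8.63 to 9.65 in labelled KO arrays, and levels of different sets share no common scale.

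**Figure D2:**
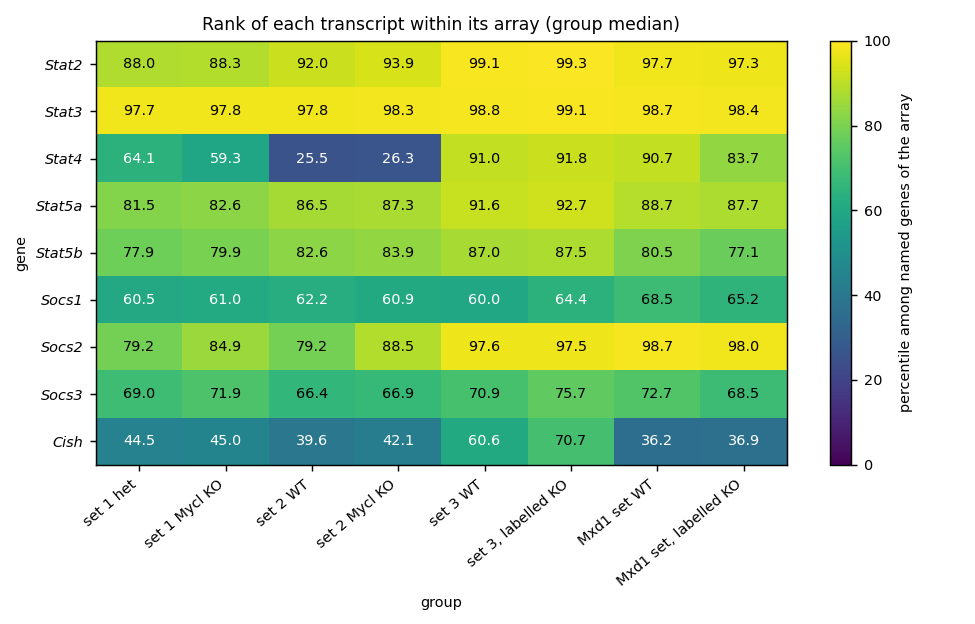
Median percentile of each gene (vertical axis) among the named genes of its array, for the 8 groups (horizontal axis); colour and printed value give the percentile. Socs2 and Stat2 were at 97.3 or above in all 4 groups after poly IC, and Stat4 was at 25.5 and 26.3 in the set 2 groups.

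At steady state in set 2, Stat2 rose in Mycl KO cDC1 and Socs2 was higher without passing the threshold, while the means of the other genes tested differed by at most 0.18. Stat2, the interferon-specific STAT, read 9.07, 8.84, 8.96, 8.96 and 9.12 in WT arrays 1 to 5. In the KO arrays it read 9.28, 9.34, 9.23, 9.35 and 9.43. Every KO array was above every WT array. The difference was 0.34 ± 0.06 (SE), or 1.26-fold higher, with a 95% interval of 0.20 to 0.47 (limma, adjusted p = 0.0078). Of 14012 genes tested in this set 6.14% were called, 3.78% higher and 2.36% lower, and in 3.74% every KO array lay above every WT array. Stat2 was thus 1 of 8 of these genes called, and 1 of 8 with groups apart. The call was kept without any 1 array (0.30 to 0.37, adjusted p 0.00553 to 0.0241) and lost when all 8 groups shared 1 estimate of the spread (adjusted p = 0.567).

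Socs2 read 7.82, 7.70, 7.41, 7.69 and 8.42 in WT arrays of set 2 and 9.12, 8.47, 7.75, 8.74 and 8.61 in KO arrays. The groups overlapped through KO array 3, the lowest of its group, which lay below WT arrays 1 and 5. WT array 5, the highest of its group, lay below the other KO arrays. The difference was 0.73 ± 0.21 (SE), 1.66-fold, with an interval of 0.29 to 1.18 (limma, adjusted p = 0.0508). It passed without KO array 3 (0.93, adjusted p = 0.00713), without WT array 5 (0.88, adjusted p = 0.0162), and on the second transcript cluster of Socs2 (0.78 ± 0.19, adjusted p = 0.0272). Leaving out the lowest KO or the highest WT array was bound to widen the difference. The fits of set 2 without 1 array called 408 to 1007 genes. Socs2 was not called in set 2 when all 8 groups shared 1 estimate of the spread.

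The remaining genes of set 2 did not pass. Stat3 was at 10.39 ± 0.11 (SD, n = 5) in WT and 10.57 ± 0.11 (n = 5) in KO arrays, a difference of 0.18 ± 0.07 (SE; limma, adjusted p = 0.129) that passed without KO array 3, its lowest (0.23, adjusted p = 0.0448). Leaving out that array was bound to widen the difference. Stat5a differed by 0.06 ± 0.08, Stat5b by 0.12 ± 0.07, Socs3 by 0.06 ± 0.09, Cish by 0.10 ± 0.08 and Socs1 by -0.04 ± 0.06 (SE), with adjusted p of 0.390 or more. Of the 8 genes tested 7 were above 0, with a median of 0.11 against 0.0078 for all genes tested. Stat4 was too low to test, reaching the low-level filter in 2 of 5 KO and 0 of 5 WT arrays.

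In set 1, where the controls were heterozygous, no difference of Stat2 was called. It read 9.40, 9.43, 9.70, 9.46 and 9.41 in heterozygous arrays and 9.54, 9.46, 9.33 and 9.45 in KO arrays, overlapping throughout, and the difference was -0.04 ± 0.07 (SE; limma, adjusted p = 0.812). The genotype difference of Stat2 in set 1 minus that in set 2 was -0.37 ± 0.09 (SE), and this test of the difference itself missed the threshold (limma, adjusted p = 0.0567; 1.01% of 14639 genes called, 0 of these 9). It passed without heterozygous array 1 (adjusted p = 0.0492), without KO array 1 of set 2 (0.0449) and without WT array 5 of set 2 (0.0333). Each of these removals widened the difference between the sets, and the fits without 1 array called 31 to 317 genes. Set 1 compares KO with 1 remaining allele and set 2 compares KO with 2, so control genotype and array set cannot be told apart here.

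Socs2 in set 1 read 8.73, 8.71, 8.67, 8.72 and 8.60 in heterozygous arrays, a narrow group. In the KO arrays it read 9.30, 8.67, 9.14 and 9.09, so that KO array 2 lay within the heterozygous range and the other 3 lay above it. The difference was 0.37 ± 0.10 (SE), with an interval of 0.14 to 0.59 (limma, adjusted p = 0.202), and it passed without KO array 2 (0.49, adjusted p = 0.0470). KO array 2 was the lowest of its group, so leaving it out was bound to widen the difference. With sets 1 and 2 in 1 fit and the set as a block, Socs2 rose by 0.56 ± 0.14 (SE), 1.47-fold, with an interval of 0.27 to 0.85 (limma, adjusted p = 0.0217). It was the only one of the 9 called in that fit, in which 4.43% of 14639 genes were called and 2.01% were higher (294 of 649 calls, against 464 of 780 after quantile normalization). The call was kept without any 1 array (0.48 to 0.65) and on the second cluster (0.50 ± 0.14, adjusted p = 0.0345), and was lost when all 8 groups shared 1 spread (0.55, adjusted p = 0.390). Stat2 in the same fit was at 0.16 ± 0.06 (adjusted p = 0.141), and passed without heterozygous array 3, the highest of its group (0.19, adjusted p = 0.0454).

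Stat4 went the other way in set 1 without passing. It read 7.46, 8.06, 7.48, 7.54 and 7.98 in heterozygous arrays and 7.25, 6.93, 7.18 and 7.46 in KO arrays. The groups met at 7.46, the lowest heterozygous and the highest KO value. The difference was -0.50 ± 0.14 (SE), with an interval of -0.82 to -0.18 (limma, adjusted p = 0.216). In set 1, 0 of the 9 genes passed limma's threshold and 3 had an unadjusted p under 0.05, against 14.2% of all genes tested, and 0.0214% of the 14023 genes tested were called. Socs3 differed by 0.14 ± 0.06, Stat5b by 0.12 ± 0.07, Cish by 0.08 ± 0.04, Stat3 by 0.07 ± 0.08, Stat5a by 0.05 ± 0.05 and Socs1 by 0.01 ± 0.05 (SE). The median of the 9 was 0.07 against 0.0029 for all genes tested. The interval of Socs1, an inhibitor of interferon signalling, ran from -0.10 to 0.12. No gene of the 9 had all KO arrays on 1 side of the heterozygous arrays, against 1.74% (higher) and 2.72% (lower) of all genes tested.

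**Figure D3:**
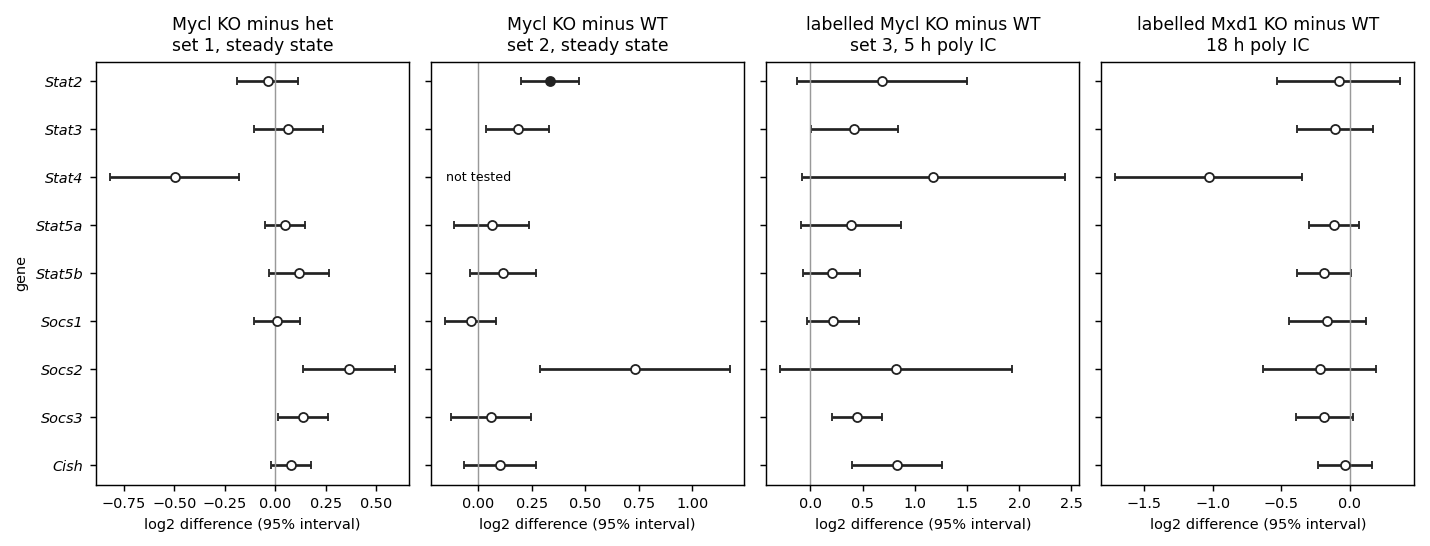
Difference in log2 level, KO minus control (horizontal axis), with its 95% interval for the 9 genes (vertical axis) in the 4 sets; filled points passed limma's threshold and the horizontal scale differs between panels. Stat2 in set 2, at 0.34, is the only one of these that passed, and the intervals of set 3 are wide for Stat2, Stat4 and Socs2.

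Around these genes in set 2, several receptors, inhibitors and targets of the pathway passed the test, and no kinase or ligand did. Of all 14012 genes tested in this set, 3.78% were called higher and 2.36% lower, and 21.2% had an unadjusted p under 0.05. Of 24 cytokine receptors tested 6 rose and 1 fell. The 5 with the smallest p all rose: Il6ra, the Il6 receptor chain (0.30 ± 0.06 SE, adjusted p = 0.00933), Flt3 (0.27 ± 0.05, adjusted p = 0.0103), Ifnar2, a chain of the type I interferon receptor (0.29 ± 0.06, adjusted p = 0.0180), Il12rb2 (0.30 ± 0.07, adjusted p = 0.0235) and Csf2rb2 (0.29 ± 0.07, adjusted p = 0.0286). The receptor list had a median of 0.14. Of 3 Janus kinases and 8 ligands tested in set 2, 0 passed (limma; 0 and 1 at an unadjusted p under 0.05). Of 15 other inhibitors 3 rose and 0 fell. These were Usp18, which blocks Ifnar2 and is itself an interferon target (0.39 ± 0.07, adjusted p = 0.00698), Socs6 (0.49 ± 0.10, adjusted p = 0.00853) and Pias3, an inhibitor of Stat3 (0.43 ± 0.10, adjusted p = 0.0219).

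Of 22 targets of ISGF3 tested, 3 rose and 0 fell, namely Usp18, Irf7, the factor that amplifies interferon production (0.43 ± 0.09, adjusted p = 0.0101), and Cmpk2 (0.43 ± 0.11, adjusted p = 0.0307), and the list's median was 0.04. Of 10 targets of STAT3 and STAT5 tested, 5 rose and 1 fell, with a median of 0.24. The shares over all genes tested in set 2, for these lists and the markers below, were 3.78% higher and 2.36% lower. Myc rose by 1.18 ± 0.11 (adjusted p = 7.9e-05), Ccnd2, a cyclin, by 1.04 ± 0.14 (adjusted p = 0.000664), the survival gene Bcl2 by 0.63 ± 0.07 (adjusted p = 0.000226) and the kinase Pim1 by 0.29 ± 0.05 (adjusted p = 0.0072), while Junb fell by 0.34 ± 0.09 (adjusted p = 0.0358). Many regulators act on these genes, and Myc belongs to the same network as Mycl. Set 1 had 0 calls in each of these lists (limma), with 7 of 22 receptors, 4 of 22 ISGF3 targets and 3 of 11 targets of STAT3 and STAT5 at an unadjusted p under 0.05, against 14.2% of all genes. The genotype difference in set 1 minus that in set 2 passed for 4 genes of the lists: Myc (-1.19; limma, adjusted p = 0.00324), Bcl2 (-0.71, adjusted p = 0.00205), Socs6 (-0.58, adjusted p = 0.0385) and the shared receptor chain Il6st (-0.33, adjusted p = 0.0411). They were 2 of 11 targets of STAT3 and STAT5, 1 of 15 other inhibitors and 1 of 24 receptors tested, with 0 of 22 ISGF3 targets. Of all 14639 genes tested in that comparison, 1.01% were called. Markers of several cell types passed the test in set 2 as well: 5 of 10 cDC1 markers rose and 1 fell, and 2 of 5 cDC2 markers rose and 1 fell. The cDC2 marker Cd209a differed by 1.37 ± 0.25 (SE; limma, adjusted p = 0.00597), the largest rise among all 14012 genes tested. Itgam differed by 0.44 ± 0.08 (adjusted p = 0.0072) and Cd4 by -0.53 ± 0.07 (adjusted p = 0.00079). The mean of the cDC2 list given below thus joins changes of both signs. Of 4 plasmacytoid markers 2 rose (Ccr9, Tcf4) and 1 fell (Pacsin1), of 3 B cell markers 1 rose (Cd22) and 1 fell (Ms4a1), and of 4 monocyte and macrophage markers 1 rose (Cx3cr1) and 1 fell (Spic), while 0 of 3 T and NK and 0 of 3 neutrophil markers passed (limma; 0 and 0 at an unadjusted p under 0.05, against 21.2% of all genes). The mean marker levels overlapped between genotypes, with the mean cDC2 marker level at 5.37 to 5.69 in WT and 5.51 to 5.99 in KO arrays, that of plasmacytoid markers at 6.83 to 6.98 and 6.90 to 7.17, that of B cell markers at 5.53 to 5.77 and 5.64 to 5.83, and that of monocyte and macrophage markers at 5.96 to 6.32 and 6.11 to 6.34. Their part in the results on this pathway was not tested.

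**Figure D4:**
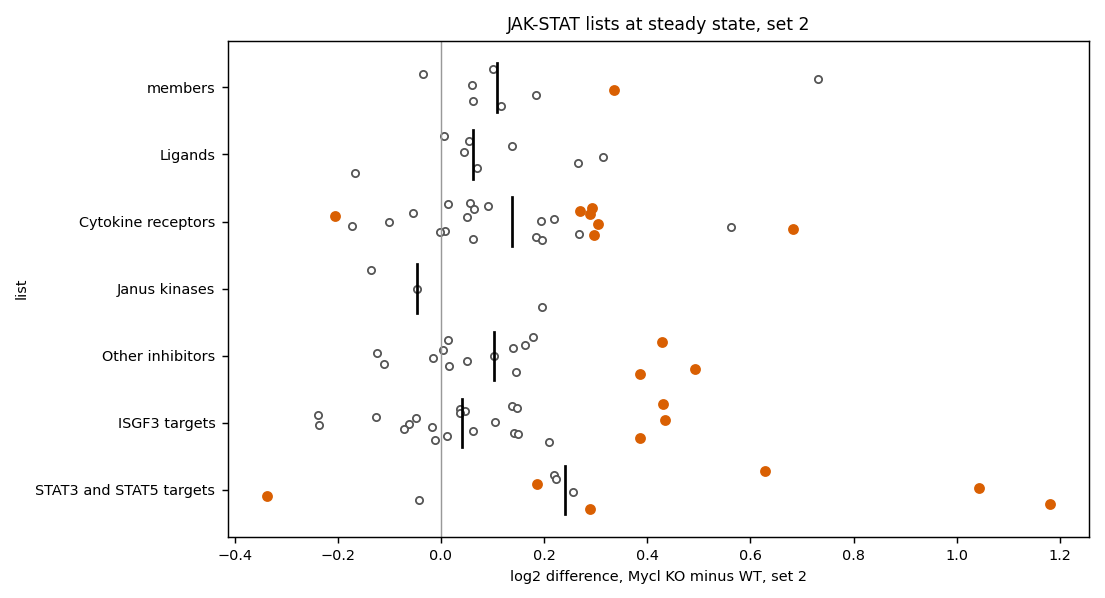
Difference in log2 level, Mycl KO minus WT in set 2 (horizontal axis), for each gene tested of the pathway lists (vertical axis); points are genes, orange where limma's adjusted p was under 0.05, bars are list medians, and "members" are the STAT and SOCS genes. The medians were 0.24 for targets of STAT3 and STAT5, 0.14 for receptors and 0.04 for ISGF3 targets.

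At 5 h after poly IC all 9 genes had a higher mean in labelled Mycl KO than in WT arrays, and none passed the test, in which 0 of 14033 genes did. For Stat2, Stat3, Stat4, Stat5a, Stat5b and Socs2 the difference was small or reversed without WT libraries 1 and 4, and none of these values passed. Those libraries were the lowest of the WT group in each of these genes and were left out after seeing the data. A lower difference was therefore bound to follow. Stat2 read 9.53, 11.42, 11.43, 10.19 and 11.67 in WT libraries 1 to 5 and 11.77, 11.65, 11.35, 11.61 and 11.30 in labelled KO libraries. Stat4 read 6.27, 8.93, 8.86, 6.44 and 9.16 in WT and 9.22, 9.65, 9.04, 9.01 and 8.63 in labelled KO libraries. In both genes WT libraries 1 and 4 were far below the other 3, which lay within the labelled KO range. Socs2 showed the same order, at 8.0, 10.46, 10.62, 8.51 and 10.71 in WT and 10.32 to 10.79 in labelled KO libraries.

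The same libraries were low in the targets of ISGF3. The mean level of 25 ISGF3 targets was 7.22, 10.15, 10.12, 8.31 and 10.39 in WT libraries 1 to 5 and 10.58, 10.46, 10.18, 10.21 and 10.14 in labelled KO libraries. All 25 targets had a higher mean in labelled KO arrays, against 6968 of 14033 genes tested, with a median of 1.06. None of them passed (limma; 5 at an unadjusted p under 0.05, against 14.2% of all genes). Without WT libraries 1 and 4, 20 of 25 were above 0, with a median of 0.08 against 0.0084 for all genes tested. The same split showed in cDC1 markers, whose mean level was 10.16 and 10.36 in WT libraries 1 and 4, 9.70 to 9.83 in the other WT libraries and 9.61 to 9.82 in labelled KO libraries, with 8 of 10 markers below 0 in the comparison. The part of this marker difference in the results was not tested. What sets libraries 1 and 4 apart was not tested. The differences with all libraries were 0.69 ± 0.37 (SE) for Stat2, 1.18 ± 0.57 for Stat4, 0.82 ± 0.50 for Socs2, 0.42 ± 0.19 for Stat3, 0.39 ± 0.22 for Stat5a and 0.20 ± 0.13 for Stat5b, with adjusted p of 0.352 to 0.437. Without WT libraries 1 and 4 they were 0.03 ± 0.11 for Stat2, 0.13 ± 0.17 for Stat4, -0.11 ± 0.10 for Socs2, 0.09 ± 0.09 for Stat3, 0.02 ± 0.11 for Stat5a and -0.01 ± 0.08 for Stat5b (limma, adjusted p of 0.815 or more). In that fit 7 of the 9 genes were above 0, with a median of 0.09 against 0.45 with all libraries.

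Of the 9 genes, Cish and Socs3 were those in which every labelled KO library of set 3 lay above every WT library. Cish read 5.42, 6.24, 6.21, 5.59 and 6.57 in WT and 6.98, 6.88, 6.63, 6.82 and 6.87 in labelled KO libraries. WT libraries 1 and 4 were again the lowest, and the highest WT library, at 6.57, was just below the lowest labelled KO library, at 6.63. That lowest labelled KO library was library 3, the one in which Mycl was at 8.87. The difference was 0.83 ± 0.20 (SE), 1.78-fold, with an interval of 0.40 to 1.26 (limma, adjusted p = 0.229). Without WT libraries 1 and 4 it was 0.49 ± 0.10 (adjusted p = 0.0881; 0.0706% of genes called), and without labelled KO library 3 as well it was 0.55 ± 0.09 (adjusted p = 0.0343), which passed in a fit that called 0.446% of 14118 genes. These exclusions were chosen after seeing the data. Leaving out labelled KO library 3, the lowest of its group, was bound to raise the difference.

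Socs3 read 7.04, 6.88, 7.01, 6.51 and 7.02 in WT and 7.33, 7.23, 7.35, 7.25 and 7.54 in labelled KO libraries. Here WT library 1 was the highest of its group, so the order of the WT libraries was not that of the interferon targets. The difference was 0.45 ± 0.11 (SE), 1.36-fold, with an interval of 0.21 to 0.69 (limma, adjusted p = 0.229), and 0.37 ± 0.08 without WT libraries 1 and 4 (adjusted p = 0.120). A second transcript cluster of Socs3, lower in level, gave 0.08 ± 0.11 (adjusted p = 0.756): it read 5.74 to 6.28 in WT and 5.90 to 6.16 in labelled KO libraries, so the clusters disagree. Socs1 differed by 0.22 ± 0.11 with all libraries (adjusted p = 0.380) and by 0.14 ± 0.11 without WT libraries 1 and 4.

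Among the 14033 genes of set 3, 1992 (14.2%) had an unadjusted p under 0.05, as did 3 of the 9 genes, and in 1.91% every labelled KO library lay above every WT library and in 1.65% below, against 2 and 0 of these 9. The percentage called was 0.0%. When all 8 groups shared 1 spread, 1910 genes or 13.6% of those tested were called, and 5 of the 9 passed: Cish (adjusted p = 0.000139), Socs3 (0.00236), Stat3 (0.0316), Stat4 (0.0342) and Stat2 (0.0478). These p-values do not measure the spread of set 3 alone: the SD of Stat2 was 0.94 in its WT arrays and 0.08 to 0.36 in the other groups. In the fit of set 3 without WT libraries 1 and 4, Stat3, Stat4 and Stat2 differed by 0.09, 0.13 and 0.03. That fit was added after seeing the data and leaves out the lowest WT libraries in these genes, so smaller differences were bound to follow. The genotype difference of Cish after poly IC exceeded that in set 2 by 0.73 ± 0.22 (SE; limma, adjusted p = 0.209) and that of Socs3 by 0.39 ± 0.15 (adjusted p = 0.285), and neither passed (0.0205% of 14665 genes did). Neutrophil markers, which mark another cell a sort could hold, had a mean level of 5.46 to 7.09 in WT and 5.63 to 7.64 in labelled KO libraries. Their lowest WT library was library 1, Ly6g was below the low-level filter in all libraries, and their part in these results was not tested. The other lists of the pathway had 0 calls in set 3 (limma). Of 14 ligands tested 12 had a higher mean in labelled KO arrays, with a median of 0.68, and targets of STAT3 and STAT5 had 12 of 12 higher, with a median of 0.35 and 6 at an unadjusted p under 0.05. WT libraries 1 and 4 stood apart here too. The mean level of the ligands was 5.45 and 5.63 in these libraries, 6.25 to 6.42 in the other WT libraries and 6.43 to 6.86 in labelled KO libraries, and that of targets of STAT3 and STAT5 was 7.77 and 7.79, 8.35 to 8.51 and 8.53 to 8.74. Without them the medians were 0.23 for ligands, with 10 of 14 above 0, and 0.15 for targets of STAT3 and STAT5, with 11 of 12 above 0, and 0 passed in either list (limma; 7 and 5 at an unadjusted p under 0.05). The 14.2% of all genes given above belongs to the fit with all libraries. Its counterpart in the fit without WT libraries 1 and 4 is not given here. The 3 Janus kinases had a median of -0.03.

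**Figure D5:**
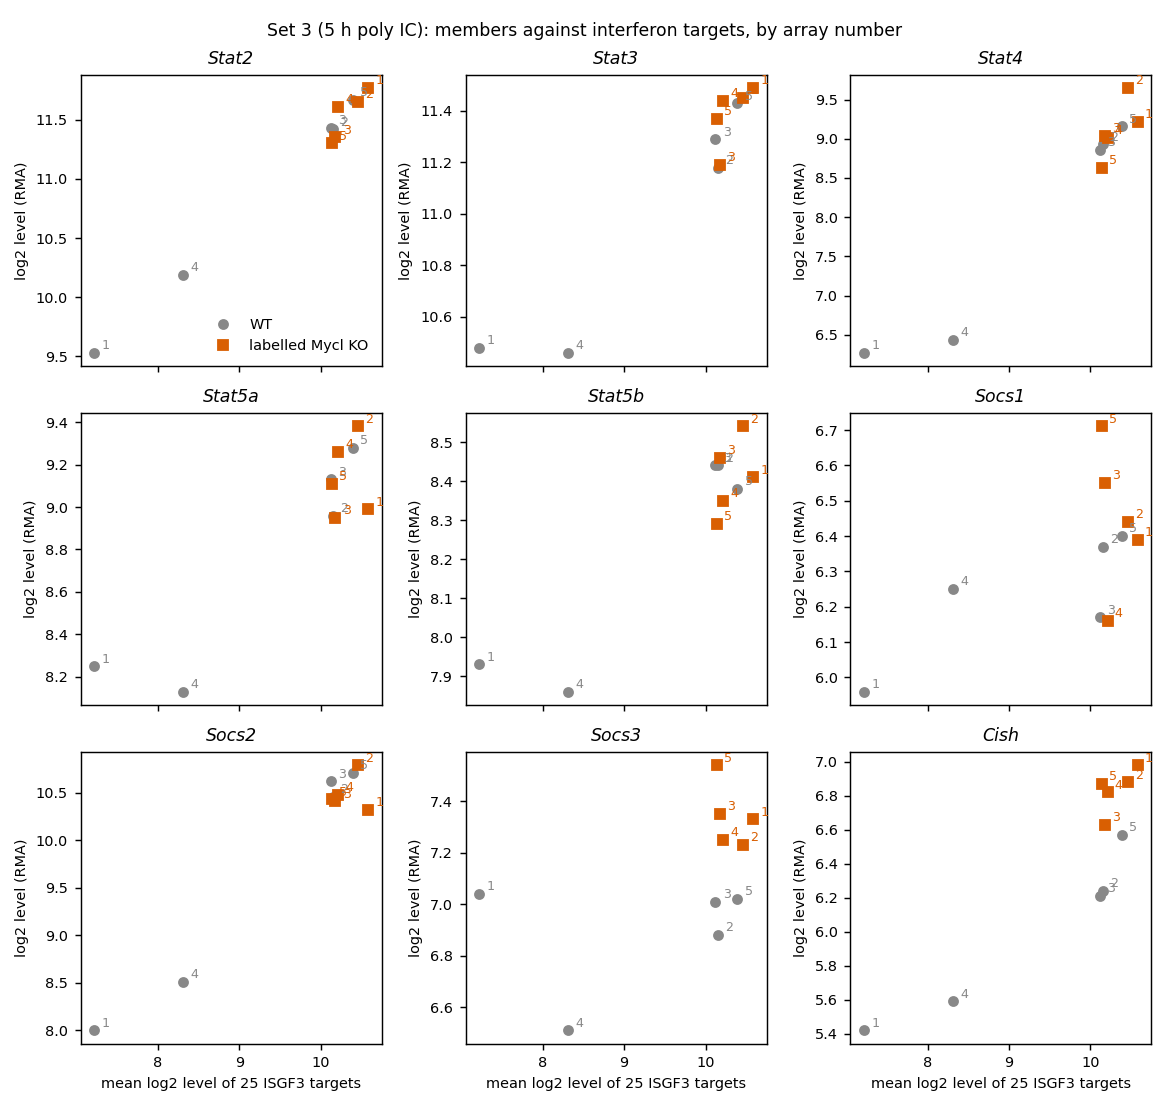
Log2 level of each of the 9 genes (vertical axes) against the mean log2 level of the 25 ISGF3 targets (horizontal axes) in the libraries of set 3; points are libraries with their number, grey for WT and orange for labelled Mycl KO. WT libraries 1 and 4, at 7.22 and 8.31 on the horizontal axes, are low in Stat2, Stat4, Socs2 and Cish, while Socs3 in WT library 1 is at 7.04.

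At 18 h after poly IC all 9 genes had a lower mean in the libraries labelled Mxd1 KO than in WT, and none passed. Stat4 differed most. It read 10.20, 9.20 and 8.85 in WT arrays and 8.43, 8.57 and 8.16 in the libraries labelled KO, so the groups did not overlap, with WT array 1 well above the others. The difference was -1.03 ± 0.30 (SE), with an interval of -1.71 to -0.35 (limma, adjusted p = 0.207), and -0.64 without WT array 1 (adjusted p = 0.24). Stat5b read 8.25, 8.02 and 8.09 in WT and 7.90, 7.98 and 7.90 in libraries labelled KO, also apart by a small margin, and differed by -0.19 ± 0.09 (adjusted p = 0.329). Every labelled KO library lay below every WT array in 10.8% of all genes tested and in 2 of these 9, and above in 11.8% and 0.

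The other differences in the Mxd1 set were -0.22 ± 0.18 (SE) for Socs2, -0.18 ± 0.09 for Socs3, -0.16 ± 0.12 for Socs1, -0.12 ± 0.08 for Stat5a, -0.11 ± 0.12 for Stat3, -0.08 ± 0.20 for Stat2 and -0.04 ± 0.09 for Cish. Their adjusted p-values (limma) were 0.361 or more. Of 14080 genes 0.071% were called, and 1 of the 9 genes had an unadjusted p under 0.05, against 15.9% of all genes. The median of the 9 was -0.16 against -0.0023 for all genes. Socs2, at 10.61 to 11.38 in WT and 10.79 to 10.96 in libraries labelled KO, and Stat2, at 10.03 to 10.67 and 10.04 to 10.57, overlapped throughout. The sign of Stat2 turned without WT array 1, WT array 2 or labelled KO array 3, that of Stat3 without WT array 1 and that of Cish without labelled KO array 3. ISGF3 targets had 16 of 25 below 0, with a median of -0.17, and targets of STAT3 and STAT5 had 10 of 12 below 0, with a median of -0.24 and 0 calls in either list (limma; 7 and 6 at an unadjusted p under 0.05, against 15.9% of all genes). The WT arrays of this set were themselves spread: WT array 3 was the lowest of the 3 in Stat2, Stat3, Stat4, Stat5a, Socs1 and Socs2. WT array 1 was the highest in Stat3, Stat4, Stat5a, Stat5b, Socs1 and Socs2. The mean level of cDC1 markers was 10.20 in WT array 1, 10.47 and 10.48 in WT arrays 2 and 3, and 10.50 to 10.56 in libraries labelled KO. In the comparison 8 of 10 of these markers were above 0 and 0 passed (limma), and their part in the results was not tested.

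To describe which genes varied most like each of the 9, levels were taken over the 35 arrays after the mean of each set was removed, and the 2 genes with the highest Pearson r among 15255 were named. The arrays share sets and, in set 3, the split of the WT libraries, so r is also given over the 25 arrays outside set 3. Stat2 went with Adar, an interferon-induced RNA editing enzyme (r = 0.97, 0.81 outside set 3), and Rasa4 (0.96 and 0.76). Stat3 went with Nfkb2, a subunit of NF-κB (0.95 and 0.83), and Flii (0.94 and 0.81). For Stat4 the genes were Asb13 (0.94 and 0.82) and Casz1 (0.93 and 0.73), for Stat5a Atp6v0a1 (0.94 and 0.70) and the death receptor Fas (0.93 and 0.75), and for Stat5b Ssh1 (0.89 and 0.80) and Clec2d (0.88 and 0.79). Socs2 went with Il15ra, the chain that presents Il15 (0.97 and 0.93), and Swap70 (0.97 and 0.93), which stayed highest outside set 3 of all the pairs named. Cish went with Gm4951 (0.93) and the receptor kinase Axl (0.92), which were at 0.50 and 0.31 outside set 3. Socs3 had weaker neighbours, the factor Klf2 (0.79 and 0.66) and Gdf11 (0.76 and 0.44), as did Socs1, with Ifna9 (0.75 and 0.34) and Gpc1 (0.73 and 0.78).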

How the data were processed

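Gene expression was measured on 35 arrays of sorted splenic cDC1. The deposited values are log2 levels of 35556 transcript clusters, which the authors made with the Affymetrix Expression Console and RMA, per the submitters' processing notes (versions: not given in the sources used here). RMA levels are relative to the other transcripts of an array, and the spike-ins that the design names were not found in the table, so a change in total RNA per cell cannot be seen. The array medians of set 1 (6.50 to 6.57), set 2 (5.55 to 5.60), set 3 (5.47 to 5.53) and the Mxd1 set (5.95 to 6.01) show the sets to lie on different scales.

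Clusters were named through the platform annotation: 21789 had 1 symbol, 1621 several and 12146 were not listed. A gene with several clusters was taken at the cluster with the highest mean. A gene was tested if it reached the 30th percentile over all named clusters in a number of arrays no lower than the size of the smaller group. Each comparison was fitted with limma 3.58.1 (R 4.3.3; lmFit and eBayes, two-sided) on the groups compared, calling an adjusted p under 0.05 (Benjamini-Hochberg, across every gene in the fit); the script was tested on simulated data. The members and lists were chosen with earlier results of these data known. The genes named are all 9 members, up to 5 called genes of each list and comparison (smallest p) and the 2 genes most correlated with each member; other genes named beside them check the labels or were chosen after their values were seen. Alternatives were quantile normalization, no filter, the mean of clusters, all 8 groups in 1 fit, array weights, the replicate number as a block, and each array left out. Leaving out WT libraries 1 and 4 and labelled KO library 3 of set 3, and taking the other cluster of Socs2 and Socs3, were added after seeing the data. The number of arrays limits the precision.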

Additional observations from a re-analysis of the deposited data

Results flagged for a closer look

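In 3 of the 54 combinations of a gene and a group that were examined, 1 array stood far from the rest of its group by Dixon's criterion, which chance meets in about 1 in 20. Stat2 was at 9.70 in heterozygous array 3 of set 1, with the next at 9.46. Stat3 was at 10.37 in KO array 3 of set 2, with the next at 10.59, and this is also the array with the lowest Socs2 of its group. Stat5a was at 8.93 in KO array 1 of set 1, with the next at 8.88, a small distance in a group that otherwise barely varied.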

How the results depend on the processing

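Of 540 values of single genes under the alternatives, 495 kept direction and side of the threshold, 21 passed where they had not, 2 no longer passed, 22 changed sign with neither fit called, and 0 of the called ones reversed. Only Stat2 in set 2 and Socs2 in sets 1 and 2 together were called in the main fits. Most of the 495 were thus uncalled in both fits. Genes with 1 cluster keep their levels when clusters are exchanged or averaged. Arrays left out enter this count by the lowest and highest difference only. Fitting all 8 groups together changed the genes called from 861 to 358 for set 2, 0 to 1910 for set 3, 10 to 235 for the Mxd1 set, 649 to 119 in sets 1 and 2 together, 148 to 15 for set 1 minus set 2 and 3 to 181 for set 3 minus set 2, and the STAT and SOCS genes called to 0, 5, 0, 0, 0 and 1. Array weights gave 141 called genes in set 1 (1 of the 9), 72 in set 3 (2 of the 9), 18 in the Mxd1 set, 584 for set 1 minus set 2 (1 of the 9), 74 for set 3 minus set 2, and 3 of the 9 in set 2. The mean of clusters gave 2 of the 9 in set 2, as did the other cluster of Socs2 and Socs3, in a fit that called 863 of 14012 genes. The totals called in set 2 with array weights and with the mean of clusters are not given here. Those counts are therefore not read as a result about the 9 genes. No filter gave 1 gene in set 3, and quantile normalization 8 for set 3 minus set 2. Quantile normalization also moved the split in sets 1 and 2 together from 294 higher of 649 to 464 of 780, and for set 1 minus set 2 from 37 higher of 148 to 45 of 106. Without WT libraries 1 and 4, set 3 had 10 calls (0 of the 9), and without labelled KO library 3 as well 63 (1 of the 9). The cause of these changes was not tested.

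Leaving out 1 array at a time gave 1 to 7 called genes in set 1 (0 to 1 of the 9), 408 to 1007 (1 to 3) in set 2, 0 to 2 for set 3 (0), 3 to 568 for the Mxd1 set (0; the 568 without WT array 2), 433 to 854 in sets 1 and 2 together (1 to 2), 31 to 317 for set 1 minus set 2 (0 to 1) and 1 to 30 for set 3 minus set 2 (0). Same-numbered arrays correlated at -0.40 to 0.35 in their deviations. With so few arrays this does not settle whether the numbers pair the samples. With the replicate number as a block, 1 gene was called in set 1, 1 in set 3 and 16 in the Mxd1 set, and 2 of the 9 in set 2, where Socs2 passed (adjusted p = 0.0099). The total called in set 2 in that fit is not given here.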
